A study of Mus musculus with 26 samples.

Results

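The cholesterol module described here is a set of 28 genes of the 54532 in the deposited table, chosen by symbol and followed in the order of the pathway. Of these, 18 encode enzymes of cholesterol synthesis, 7 on the way from acetyl-CoA to farnesyl diphosphate and 11 from squalene to the finished sterol ring. Another 5 encode the sterol-sensing machinery and 5 act in sterol transport. All 28 passed the filter on low counts. RNA came from untreated mice, and immunoprecipitated (IP) astrocyte RNA was sequenced from retina (6 libraries), the optic nerve head or ONH, where ganglion cell axons leave the eye (7), and the myelinated optic nerve proper or ONP (7), with 6 retinal input libraries as controls. The study asked how retinal astrocytes differ from the retina as a whole and from the astrocytes of the nerve. The labels used here name no genotype, strain, age or sex, no promoter or cell type driver behind the IP, and they leave unsaid whether libraries came from different animals. The p-values therefore reflect only library-to-library spread, which may be technical.

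Cholesterol cannot cross the blood-brain barrier in lipoproteins, so neural tissue makes its own from acetyl-CoA. Astrocytes are known for exporting cholesterol to neurons on apolipoprotein E, and myelinating oligodendrocytes for making large amounts of it for their membranes. When sterol in the endoplasmic reticulum is low, SCAP escorts SREBP2 to the Golgi, where it is cut, and the released fragment switches on the synthesis genes. INSIG proteins hold SCAP back when sterol is high, while excess sterol, through oxysterols and LXR receptors, switches on the exporters ABCA1 and ABCG1.

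Batch, as the labels give it, divided the libraries into batch 1 (12 ONH and ONP libraries) and batch 2 (the 12 retinal libraries plus replicate 7 of ONH and of ONP, termed the bridging libraries). Y-linked genes had 702 to 2262 counts in each library of batch 1 and 0 to 1 in each of batch 2, so sex, as read from Y-linked counts, and batch cannot be told apart. Total counts ranged from 11164619 to 18417001 in retinal input, from 14703195 to 24966236 in retinal IP, from 14812762 to 26407745 in ONH and from 14051088 to 27431026 in ONP. Summed over 10 astrocyte markers, levels in CPM (counts scaled to library size) were 511.7 to 2211 in input, 1681 to 13880 in retinal IP, 5962 to 31260 in ONH and 11480 to 38120 in ONP. Retinal IP libraries 1 and 5, at 1681 and 2150 CPM, lay within the input range. The sum of 10 oligodendrocyte markers was 50.6 to 158 CPM in retinal IP, but 27740 to 72950 CPM in ONH and 36200 to 124100 CPM in ONP, so the nerve IP libraries carried abundant oligodendrocyte transcripts as well. The bridging ONH library stood apart, with 48900 CPM of 10 rod markers against 45.2 to 859 CPM in the other 6 ONH libraries. It also exceeded every retinal library, as these markers summed to 1018 to 12690 CPM in input and 654 to 2699 CPM in retinal IP. Markers of ganglion cells, 10 in all, summed to 3997 to 9601 CPM in input, 20.8 to 258 CPM in ONH and 15.1 to 38.8 CPM in ONP. In retinal IP they summed to 5067 to 5477 CPM in libraries 1, 5 and 6, within the input range, and to 921 to 2050 CPM in libraries 2, 3 and 4. Retinal input libraries 1 and 2 had the fewest genes detected, 16782 and 17082. In bulk RNA, a smaller number of cells of a type and less RNA per cell cannot be told apart.

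The 250 bases upstream of 5 starts are shown, from RefSeq on GRCm38.p6 and in the direction of transcription. The first 4 belong to genes that were lower in ONH than in ONP, and Insig2 is the 1 member called the other way. Hmgcs1 lies at chr13:119690101-119690350 (plus strand), Mvd at chr8:122443423-122443672 (minus), Sc5d at chr9:42264301-42264550 (minus), Nsdhl at chrX:72918271-72918520 (plus) and Insig2 at chr1:121332590-121332839 (minus). Capitals mark every match, on either strand, to CCAAT (the NF-Y box), GGGCGG (a GC box bound by Sp1), TCACNCCAC (a sterol regulatory element form) or CACGTG (an E-box).
Hmgcs1: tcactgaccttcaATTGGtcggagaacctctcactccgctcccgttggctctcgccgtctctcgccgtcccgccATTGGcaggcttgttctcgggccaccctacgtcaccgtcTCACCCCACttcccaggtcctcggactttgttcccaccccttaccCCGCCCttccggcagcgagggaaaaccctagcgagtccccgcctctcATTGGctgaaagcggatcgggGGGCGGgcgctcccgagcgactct
Mvd: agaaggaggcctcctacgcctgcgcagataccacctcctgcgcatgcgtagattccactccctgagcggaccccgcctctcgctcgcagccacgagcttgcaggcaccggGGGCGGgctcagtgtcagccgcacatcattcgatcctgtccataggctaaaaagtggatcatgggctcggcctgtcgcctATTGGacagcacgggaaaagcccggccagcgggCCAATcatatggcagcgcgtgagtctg
Sc5d: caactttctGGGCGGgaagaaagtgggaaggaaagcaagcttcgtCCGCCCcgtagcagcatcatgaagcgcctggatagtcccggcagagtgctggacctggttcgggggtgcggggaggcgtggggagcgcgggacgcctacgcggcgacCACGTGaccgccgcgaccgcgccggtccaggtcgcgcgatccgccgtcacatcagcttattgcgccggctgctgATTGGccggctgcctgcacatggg
Nsdhl: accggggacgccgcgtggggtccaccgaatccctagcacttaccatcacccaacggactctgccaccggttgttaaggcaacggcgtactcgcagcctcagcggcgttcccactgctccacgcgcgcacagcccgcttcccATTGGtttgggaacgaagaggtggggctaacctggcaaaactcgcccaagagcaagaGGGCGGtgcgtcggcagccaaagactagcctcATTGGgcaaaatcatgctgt
Insig2: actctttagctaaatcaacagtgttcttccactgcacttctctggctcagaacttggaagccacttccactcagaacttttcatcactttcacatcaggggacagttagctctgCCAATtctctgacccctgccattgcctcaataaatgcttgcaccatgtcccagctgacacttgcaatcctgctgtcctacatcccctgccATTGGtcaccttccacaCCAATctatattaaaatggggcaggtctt

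The table held promoters for 23 of the 28 members, 33 promoters in all, and 15 of the 18 synthesis genes were among them. A CCAAT match was found upstream of 14 of these 15 genes, all but Acat2, and in 77.8% of their 18 promoters, against 33.8% of the 32851 promoters in the table. GGGCGG was found upstream of 14 of the 15, all but Pmvk, and in 83.3% of their promoters against 32.7% of all. The sterol element form stood upstream of 1 of the 15, Hmgcs1, with a share of 1.05% among all promoters. CACGTG stood upstream of Hsd17b7, Sc5d and Dhcr7, 16.7% of the promoters of synthesis genes against 6.02% of all. Hmgcs1 carried 3 CCAAT and 2 GGGCGG matches. Of the 3 Insig2 promoters in the table, the one shown had 3 CCAAT and 0 GGGCGG matches, and the others had 1 GGGCGG and 0 CCAAT matches each. A match is a string of letters in this window and not a measured binding site. The promoters of the whole table were not matched to the members for base composition or expression. Whether such matches bear on the difference between ONH and ONP was not tested.

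Along the pathway, 13 of the 18 synthesis genes had their highest group mean in ONP, 3 in retinal IP (Idi1, Tm7sf2 and Nsdhl) and 2 in retinal input (Pmvk and Fdps). None had it in ONH, where 8 of the 18 had their lowest mean, and the other 10 were lowest in retinal input. Summed over the 18 genes, the level was 1652 to 2208 CPM in input, 2315 to 2583 CPM in retinal IP, 1275 to 2850 CPM in ONH and 2975 to 6083 CPM in ONP. The ONP libraries thus lay above every other library, and the retinal IP libraries formed the narrowest group. Within retinal IP the astrocyte marker sum spanned 1681 to 13880 CPM, while the synthesis sum stayed within 2315 to 2583 CPM. Single genes were not all as level, and they split in both directions. Libraries 2, 3 and 4, with the most astrocyte markers, held 263.2 to 293.9 CPM of Sqle against 179.8 to 211.1 CPM in the others. For Fdft1 they held less, 399.6 to 458.5 against 499.8 to 550.3 CPM. Idi1 split like Sqle and Acat2 like Fdft1. Any link to astrocyte content was not tested.

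**Figure D1:**
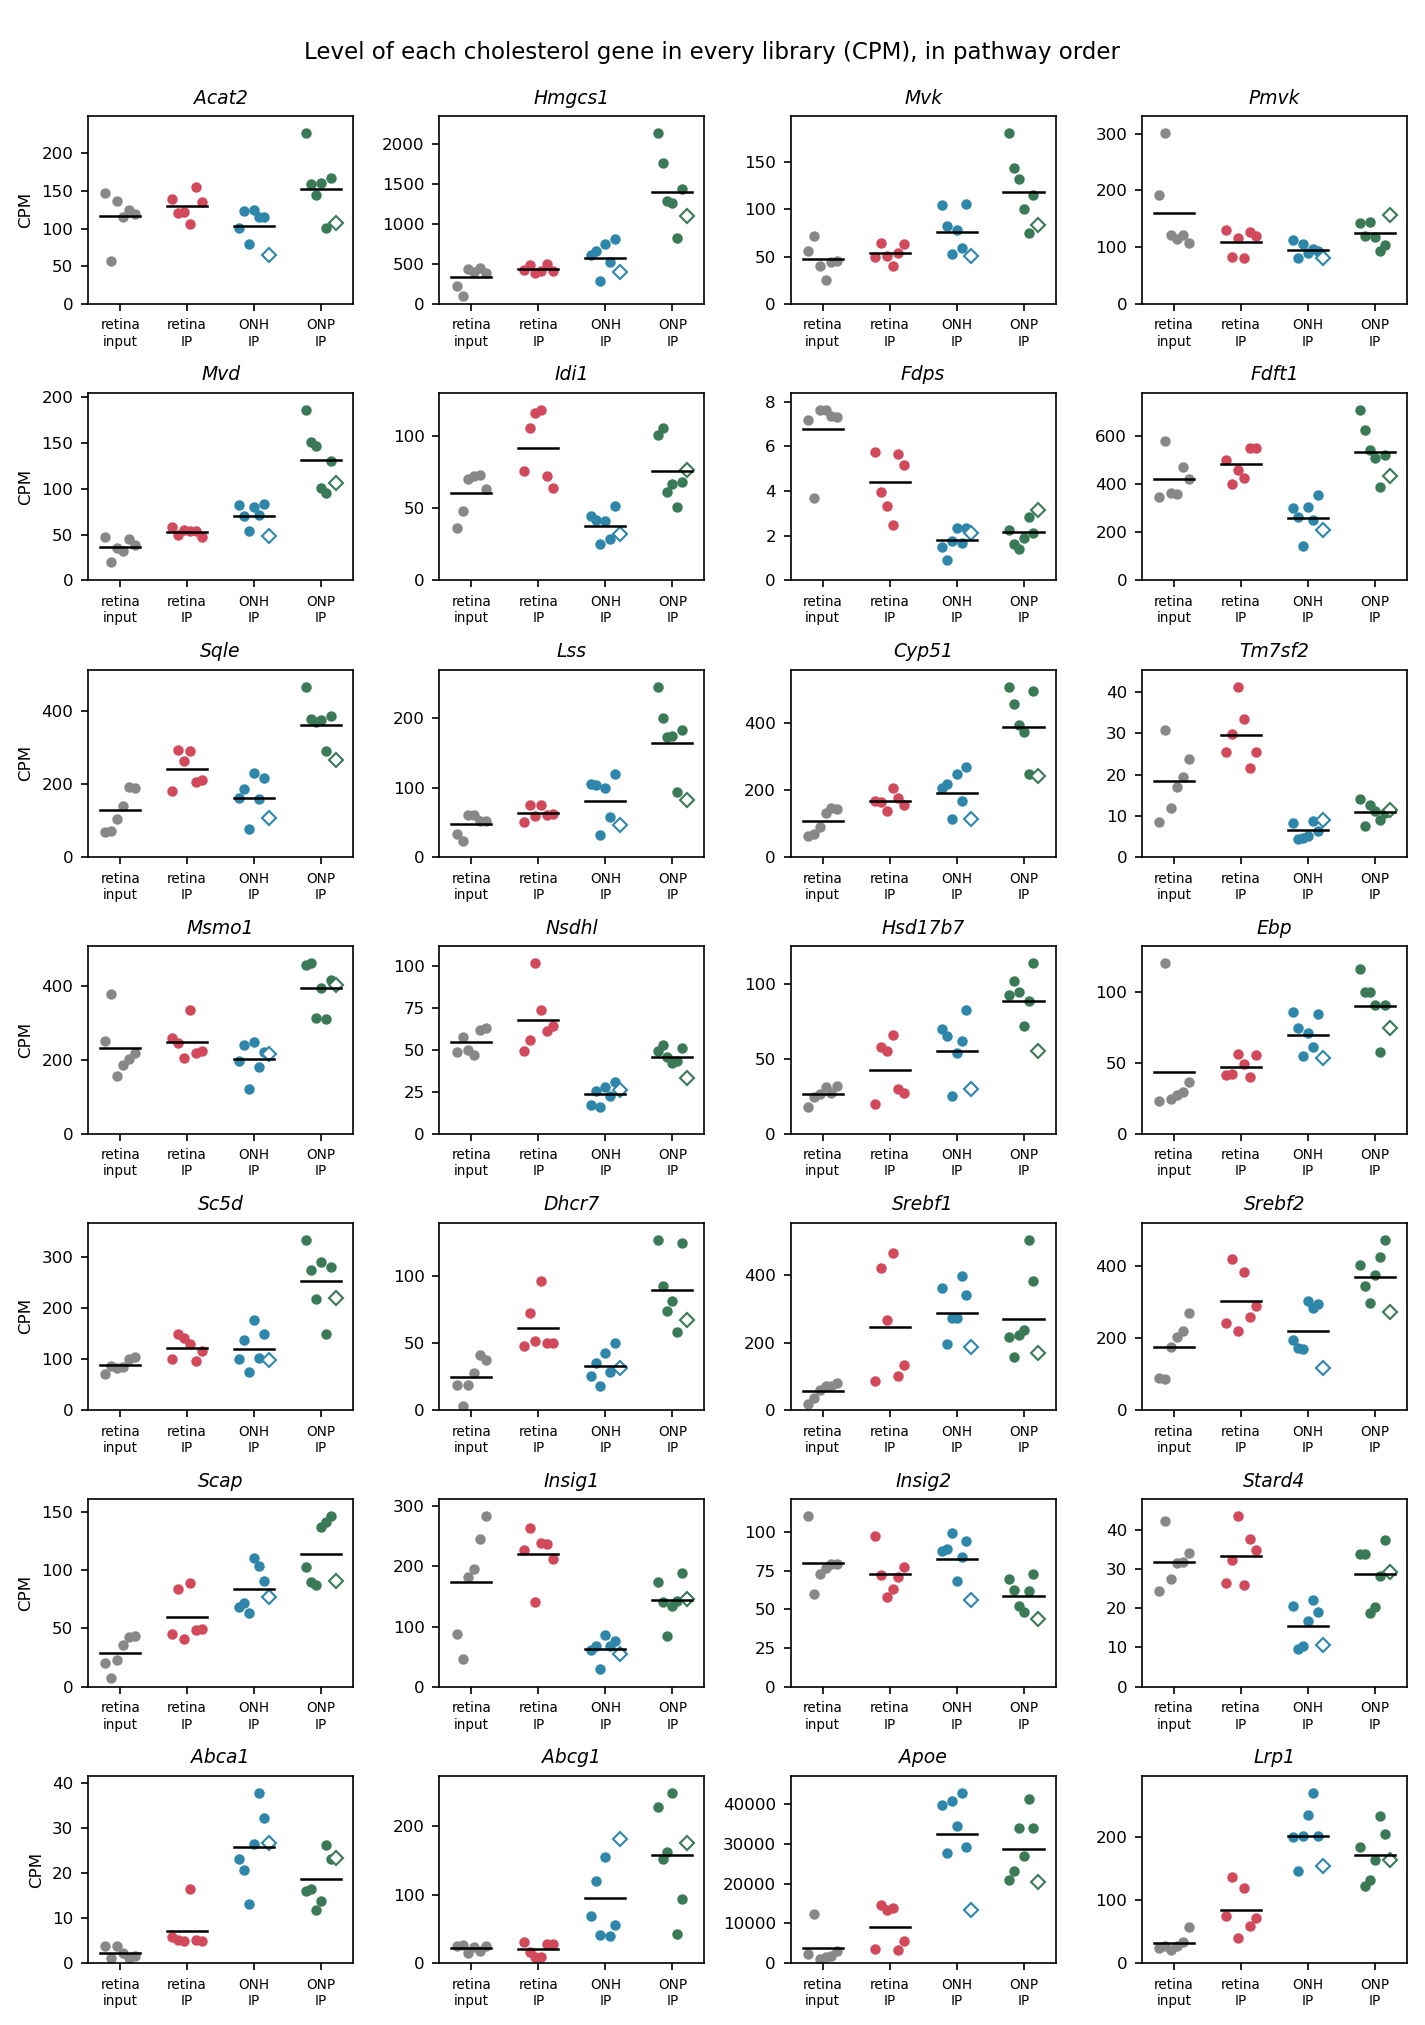
Level of each of the 28 genes in CPM (vertical axes start at 0, each panel on its own scale) in every library of the 4 groups, with a black line at each group mean and open diamonds for the 2 bridging libraries of batch 2. ONP is the highest group for 13 of the 18 synthesis genes, while Apoe, Lrp1 and Abca1 are high in both nerve regions.

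Corrected for length, as CPM per kilobase of exon, Apoe exceeded every other member in every group. Its group means were 1748 in input, 4237 in retinal IP, 15230 in ONH and 13420 in ONP. Among the synthesis genes Hmgcs1, which encodes the enzyme joining acetyl-CoA to acetoacetyl-CoA, averaged 71.7, 94.2, 126 and 305 CPM per kilobase in the same order. Fdft1, squalene synthase, averaged 99.9, 114, 61.6 and 125. Lss, which closes the sterol ring, was far lower per kilobase, at 4.35, 5.88, 7.45 and 15.2. Fdps, farnesyl diphosphate synthase, was listed at 0.43 to 1.61 per kilobase, but its transcripts are at least 95% identical over 200 or more bases to 5 other annotated genes. The processed pseudogene Gm3571, 98.9% identical to it, averaged 6.94, 5.54, 2.64 and 3.68 CPM, so the Fdps level is uncertain. Acat2 (shared stretches with Acat3 and Tcp1), Fdft1 (with Ctsb and Gm6781), Idi1 (with pseudogenes such as Gm13502), Hmgcs1 and Scap also share such stretches with another gene, and reads could be split between them.

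ONH and ONP, 2 stretches of the same nerve, differed most clearly in this module. Of the 28 members 17 were lower in ONH and 1 was higher (edgeR's quasi-likelihood test, adjusted p under 0.05). Over the 16355 genes tested 7.48% were called, 3.04% lower and 4.43% higher. Among the 18 synthesis genes 14 were lower and none higher. All 18 estimates were negative, with a median log2 fold change of -0.95 beside 0.02 over all genes. Libraries of the 2 regions did not overlap for 7 of the 28 members, all of them synthesis genes lower in ONH, where 0.801% of all genes were lower without overlap and 1.14% higher.

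In the early steps, Hmgcs1 (ENSMUSG00000093930, mm10 chromosome 13, 119690379 to 119708260) had a lowest, median and highest level of 280.5, 607.9 and 814.2 CPM in ONH and of 819.4, 1287 and 2128 CPM in ONP. Every ONP library lay above every ONH library, if only just at the nearest pair. The log2 fold change was -1.29 (SE 0.211, adjusted p = 0.00125). Mvd, which makes isopentenyl diphosphate, spanned 48.5 to 83.8 CPM in ONH and 95.8 to 186 CPM in ONP and fell by 0.92 on the log2 scale (adjusted p = 0.000697, the smallest of the module). Idi1, the isomerase of the next step, averaged 37.8 ± 9.51 CPM (SD, n = 7) in ONH and 75.5 ± 20.2 CPM (SD, n = 7) in ONP, with a single point of overlap between 51.7 and 50.4 CPM. Acat2 and Mvk, the thiolase at the entry and mevalonate kinase, were also lower, by smaller log2 differences of -0.57 and -0.64. Pmvk and Fdps did not pass the test.

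After squalene the differences were of the same order. Sqle (ENSMUSG00000022351, chromosome 15, 59315077 to 59331192), squalene epoxidase and a rate-controlling step, had a lowest, median and highest level of 75.9, 162.2 and 229.5 CPM in ONH and 265.6, 376.9 and 467.5 CPM in ONP. The libraries did not overlap, and the log2 fold change was -1.17 (SE 0.19, adjusted p = 0.00117). Dhcr7, which catalyses a last reduction of the ring, showed the largest difference of the module, from 18.1, 31.8 and 50.4 CPM in ONH to 58.7, 81.8 and 127 CPM in ONP. Its libraries too lay apart, at a log2 fold change of -1.43 (SE 0.231, adjusted p = 0.00115). Sc5d, the lathosterol desaturase, fell by 1.08 (SE 0.188, adjusted p = 0.00194), Cyp51, the lanosterol demethylase, by 1.04 (SE 0.177, adjusted p = 0.00173), Fdft1 by 1.03 (SE 0.17, adjusted p = 0.00132) and Lss by 1.03 (SE 0.238, adjusted p = 0.0139). Msmo1, Nsdhl and Tm7sf2, which remove methyl groups or reduce the ring, were lower by log2 differences of -0.96, -0.95 and -0.74. Hsd17b7 and Ebp, at -0.69 and -0.38, did not pass.

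The sensing genes divided. Insig1 (ENSMUSG00000045294, chromosome 5, 28071363 to 28078662), itself a target of SREBP2, had 28.7, 67.0 and 86.1 CPM (lowest, median, highest) in ONH and 85.0, 142.8 and 189.6 CPM in ONP, with 1 ONP library inside the ONH range. Its log2 fold change was -1.21 (SE 0.208, adjusted p = 0.00178). Insig2 (ENSMUSG00000003721, chromosome 1, 121304353 to 121332589), the partner that is not driven by SREBP2 in the same way, ran the other way, at 56.2, 87.7 and 99.6 CPM in ONH and 43.8, 62.0 and 73.1 CPM in ONP. Its ranges overlapped, and the log2 fold change was 0.49 (SE 0.131, adjusted p = 0.0298). Srebf2 (ENSMUSG00000022463, chromosome 15, 82147181 to 82205379), which encodes SREBP2, spanned 115.7 to 301.6 CPM around a median of 193.1 in ONH and 271.3 to 471.5 CPM around 374.8 in ONP (-0.79, SE 0.183, adjusted p = 0.0136). Srebf1, the fatty acid counterpart, hardly differed (0.10, adjusted p = 0.901), and Scap did not pass (-0.44, adjusted p = 0.184).

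Of the transport genes only Stard4, which carries cholesterol between membranes, was called in this comparison. It averaged 15.6 ± 5.26 CPM (SD, n = 7) in ONH and 28.9 ± 7.04 CPM (SD, n = 7) in ONP (-0.90, adjusted p = 0.0162). Apoe (ENSMUSG00000002985, chromosome 7, 19696109 to 19699188), the lipoprotein that carries astrocyte cholesterol, had 13440, 34490 and 42770 CPM in ONH and 20500, 27060 and 41140 CPM in ONP. The ranges overlapped almost fully, and the log2 fold change was 0.13 (SE 0.325, adjusted p = 0.858). Abca1, Abcg1 and Lrp1, the 2 exporters and an uptake receptor for apolipoprotein E, did not pass (0.46, -0.81 and 0.22).

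The direction of the synthesis genes held in both batches. Taking batch 1 alone, 16 members were lower and 1 higher, where 1181 of 14753 genes were lower and 1264 higher. All 18 synthesis genes had a higher mean in ONP. In the bridging pair, with 1 library a region and no test, all 18 were higher in the ONP library too. For Hmgcs1 the ratio of ONP to ONH was 2.39 in batch 1 and 2.76 in the bridging pair, for Sqle 2.21 and 2.49, and for Insig1 2.25 and 2.64. Leaving out each of the 20 IP libraries in turn, 14 of the 18 calls held every time, and those for Acat2, Mvk, Tm7sf2 and Insig2 were lost in at least 1 fit. Insig2 lost its call without ONH library 1, ONH library 3, ONP library 3 or ONP library 4. With same-numbered libraries paired as a block, 17 of the 18 synthesis genes were lower and none higher. That fit called 1637 of 14799 genes lower and 1481 higher. Beyond the main calls it added Pmvk, Hsd17b7, Ebp, Scap and Abcg1 as lower and Abca1 as higher.

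**Figure D2:**
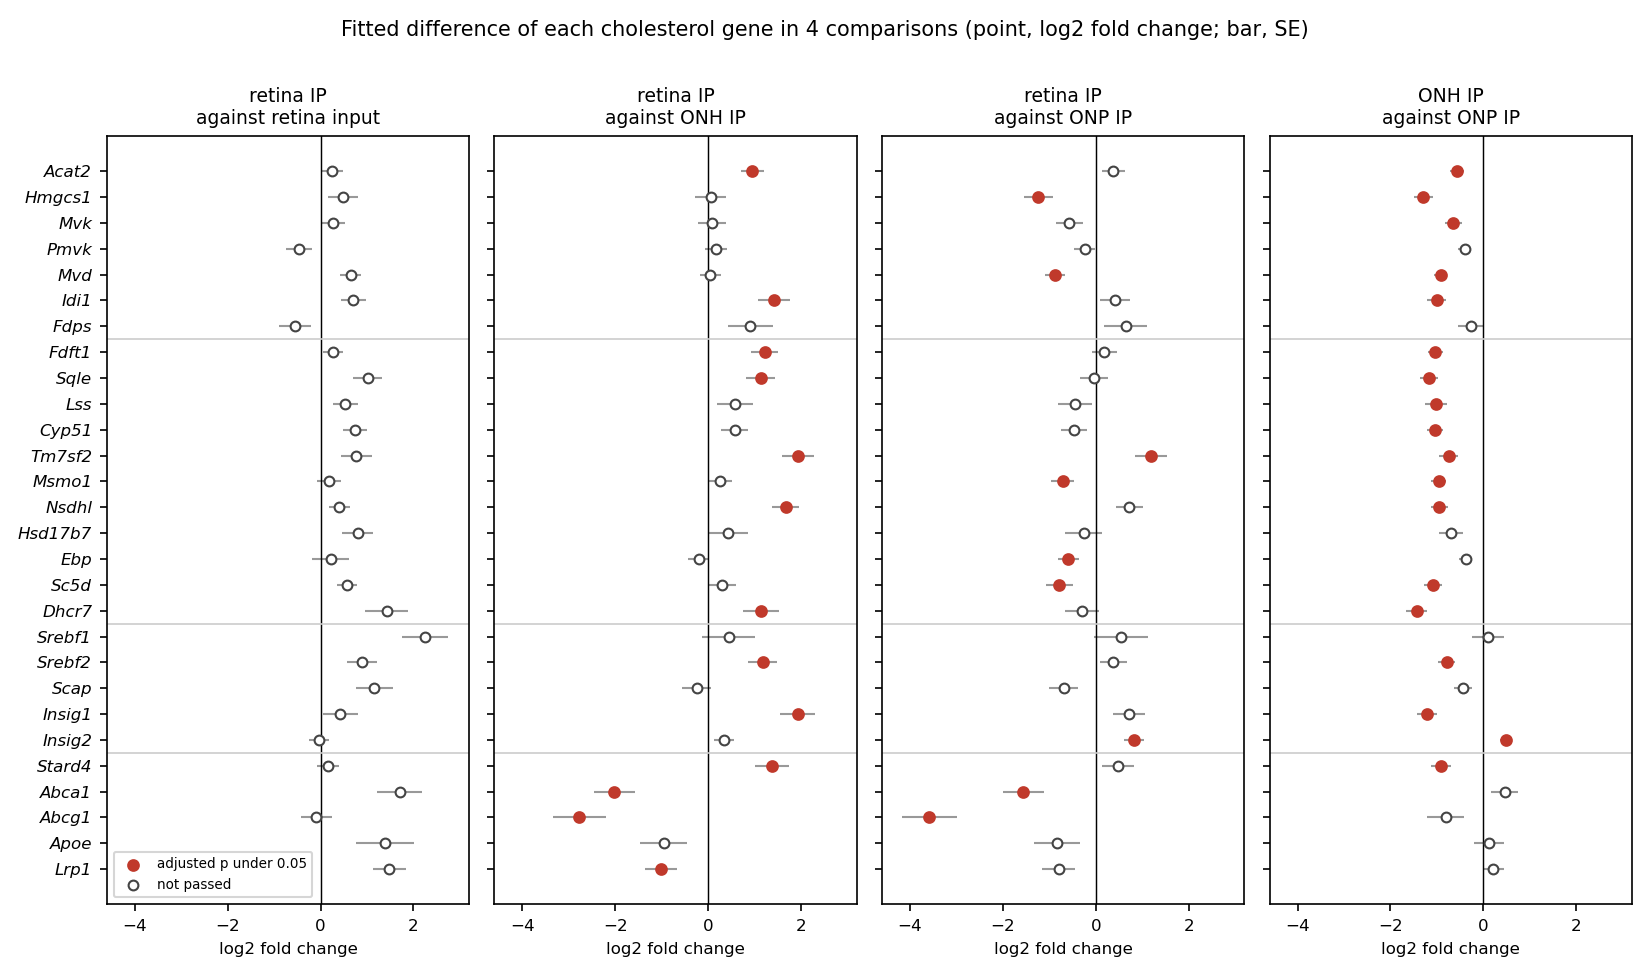
Log2 fold change (horizontal axis; bars are SE) of the 28 genes in pathway order for the 4 comparisons, with filled red points for an adjusted p under 0.05 and open points otherwise; grey lines divide early synthesis, squalene to sterol ring, sensing and transport. In ONH against ONP all 18 synthesis genes lie left of 0, whereas in retinal IP against ONH 17 of the 18 lie right of it (11 without the batch term, not drawn).

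Oligodendrocyte transcripts differed in the same direction. Estimates for all 10 markers were lower in ONH than in ONP, and 2 of them, Cnp and Sox10, passed the test. The marker sum and the synthesis sum were both lowest in the same library of each region. ONH library 3 had 27740 CPM of oligodendrocyte markers and 1275 CPM of synthesis genes, and it was the lowest ONH library for 10 of the 18. ONP library 5 had 36200 and 2975 CPM, and it was the lowest ONP library for 11 of the 18. At the other end the order differed, since ONP library 1, the highest for 12 of the 18 synthesis genes, was the fifth of 7 ONP libraries by oligodendrocyte sum (89220 CPM). ONP library 5 lay above ONH libraries 2, 4 and 6 in synthesis sum (2975 against 2416, 2672 and 2850 CPM) with fewer oligodendrocyte transcripts (36200 against 65360, 72950 and 60990 CPM). The remaining ONH libraries held fewer of these transcripts than ONP library 5, at 27740 to 34710 CPM. ONP library 5 also had the highest astrocyte marker sum of all libraries, 38120 CPM. The part of oligodendrocyte RNA in the difference was not tested. Markers of oligodendrocyte precursors also differed. The sum of 5 was 83.2 to 294 CPM in ONH and 329 to 586 CPM in ONP, without overlap, and 3 of the 5 were called lower (Gpr17, Lhfpl3 and Neu4). The part of these cells was not tested either. None of the 10 astrocyte markers was called.

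**Figure D3:**
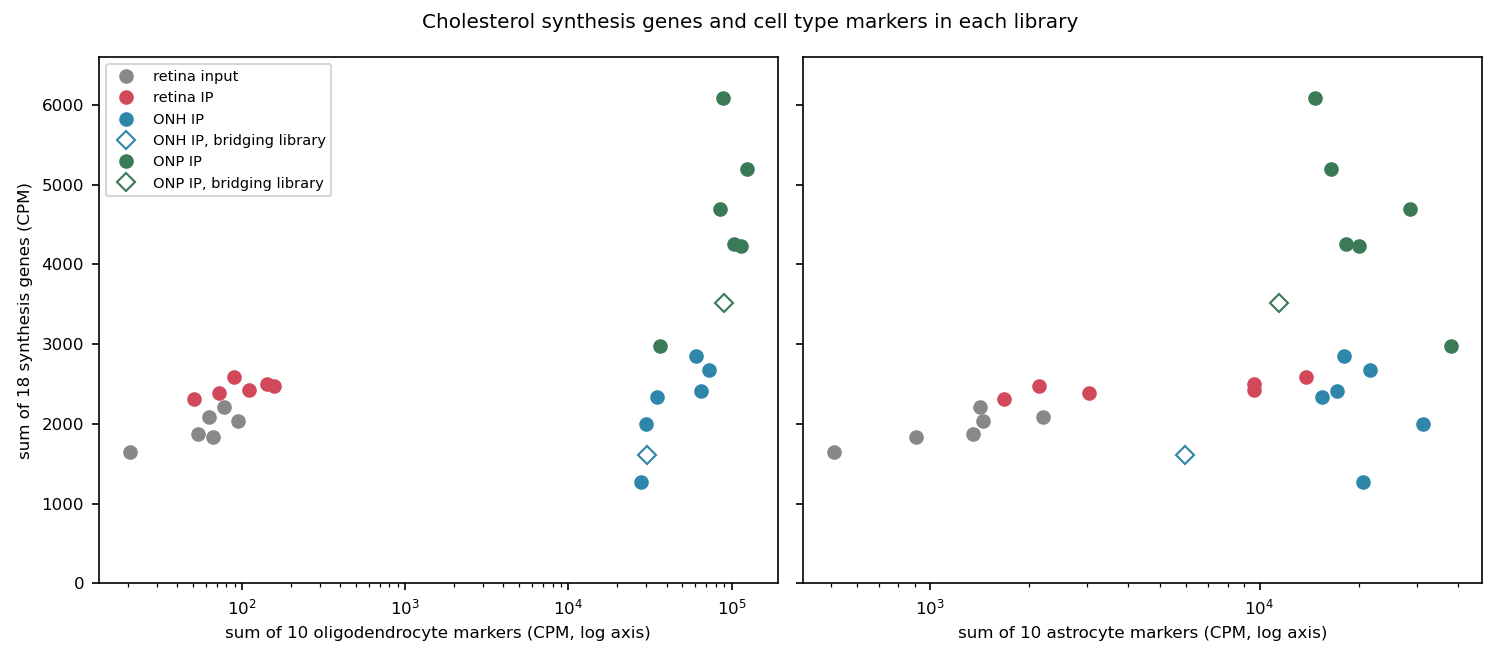
Sum of the 18 synthesis genes (vertical axis, CPM) against the sum of 10 oligodendrocyte markers (left) and 10 astrocyte markers (right), both on log axes in CPM; each point is a library and open diamonds are the bridging libraries. Retinal IP libraries hold 2315 to 2583 CPM of synthesis genes at 50.6 to 158 CPM of oligodendrocyte markers, and ONP libraries hold 2975 to 6083 CPM at 36200 to 124100.

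Retinal IP against ONH gave 10 members higher and 3 lower, where 33.8% of all genes were called, 12.7% higher and 21.1% lower. The higher members were the synthesis genes Acat2, Idi1, Fdft1, Sqle, Tm7sf2, Nsdhl and Dhcr7 with Srebf2, Insig1 and Stard4, and the lower ones the lipid exporters Abca1 and Abcg1 and the receptor Lrp1. The median over the 18 synthesis genes was 0.58, beside -0.13 over all genes. Retinal libraries lay above all ONH libraries for 7 members and below them for 2, where 8.77% and 14.1% of all genes did. These fits correct for batch through the bridging libraries, and the calls turned on them. Without the bridging ONH library, which had the rod transcripts, 4 members were higher and 1 lower, and the calls of Acat2, Idi1, Sqle, Dhcr7, Srebf2, Stard4, Abcg1 and Lrp1 were lost. Without the bridging ONP library 8 were higher and 2 lower. Within batch 2, where ONH is a single library assumed to vary like the retinal ones, 1 was higher (Insig1) and 1 lower (Abcg1). Without the batch term 9 were higher and 5 lower, and the median over all 28 members moved from 0.44 to -0.04. For the 18 synthesis genes it moved from 0.58 to 0.28, and 11 estimates were positive where the main fit had 17. Ganglion cell markers were higher in every retinal IP library (921 to 5477 CPM) than in any ONH library (20.8 to 258 CPM). Microglia and fibroblast markers, like those of oligodendrocytes, ran the other way. The sum of 10 microglia markers was 115 to 193 CPM in retinal IP, 266 to 2205 in ONH and 344 to 3324 in ONP. For 6 fibroblast markers it was 3.28 to 22.3, 437 to 1052 and 161 to 1027 CPM. The part of any of these cells in the differences was not tested. The retinal IP mean was above the bridging ONH library for 17 of 18 synthesis genes, but above the mean of the 6 batch 1 ONH libraries for 10.

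Tm7sf2, a sterol reductase, and Nsdhl, a decarboxylating dehydrogenase, lay apart in the plain levels. Tm7sf2 had 21.5, 27.7 and 41.3 CPM in retinal IP and 4.47, 6.20 and 8.95 CPM in ONH (1.93, SE 0.352, adjusted p = 0.000367). Nsdhl had 49.2, 62.5 and 101.5 CPM in retinal IP and 15.7, 25.5 and 30.7 CPM in ONH (1.67, SE 0.298, adjusted p = 0.000308). No ONH library reached a retinal one in either gene. Insig1 had 141.0, 232.0 and 263.6 CPM in retinal IP, above all ONH libraries (1.92, SE 0.369, adjusted p = 0.00057). Idi1 spanned 63.9 to 117.8 CPM in retinal IP and 25.4 to 51.7 CPM in ONH, and Fdft1 399.6 to 550.3 CPM and 142.4 to 354.4 CPM. Both lay apart, with log2 fold changes of 1.41 (SE 0.343, adjusted p = 0.0037) and 1.22 (SE 0.289, adjusted p = 0.00309). The calls of Fdft1, Tm7sf2, Nsdhl, Insig1 and Abca1 held in all 20 fits that left out a library. Retinal input was also above ONH in mean level for Tm7sf2 (18.5 against 6.59 CPM), Nsdhl (54.5 against 23.6) and Insig1 (173.6 against 62.8). The same held for Idi1 (60.5 against 37.8 CPM) and Fdft1 (422.1 against 260.4). None of these genes was called in retinal IP against input.

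Srebf2 spanned 219.6 to 418.4 CPM around a median of 273.0 in retinal IP and overlapped ONH (1.17, SE 0.314, adjusted p = 0.00727). Sqle, at 179.8, 237.2 and 293.9 CPM in retinal IP, also overlapped ONH (1.13, SE 0.321, adjusted p = 0.0105). Stard4 lay above ONH without overlap (1.38, SE 0.375, adjusted p = 0.00806). Hmgcs1 showed no difference that passed, with a retinal IP range of 384.2 to 496.7 CPM around 413.5 (0.06, SE 0.336, adjusted p = 0.917), and neither did Insig2, at 57.8 to 97.2 CPM around 71.4 (0.34, SE 0.214, adjusted p = 0.227).

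Both exporters were called lower in retinal IP than in ONH in the main test. Abcg1 had 8.95, 21.9 and 30.8 CPM in retinal IP and 39.6, 69.5 and 181.5 CPM in ONH (-2.77, SE 0.565, adjusted p = 0.000954). Abca1 had 4.86, 5.15 and 16.6 CPM against 13.1, 26.5 and 37.8 CPM (-2.02, SE 0.44, adjusted p = 0.00163). Only retinal IP library 4, at 16.6 CPM, reached the ONH range of Abca1. Lrp1 spanned 40.6 to 136.9 CPM in retinal IP and 146.6 to 269.7 CPM in ONH (-1.01, SE 0.353, adjusted p = 0.0322). The Lrp1 call was lost in 7 of the 20 fits that left out a library, and also without the low-count filter. Apoe, at 3384, 9504 and 14590 CPM in retinal IP, had a mean of 9059 ± 5422 CPM (SD, n = 6) against 32560 ± 10200 CPM (SD, n = 7) in ONH, and did not pass with the batch term (-0.96, SE 0.512, adjusted p = 0.155). Without the batch term Apoe was called lower in retinal IP than in ONH (-1.82, adjusted p = 0.000437) and than in ONP (-1.64, adjusted p = 0.000971). The bridging ONH library held 13440 CPM of Apoe, inside the retinal range, while the other 6 ONH libraries held 27650 to 42770 CPM.

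Retinal IP against ONP gave fewer calls, 2 higher and 7 lower, where 32.8% of all genes were called, 12.9% higher and 19.9% lower. Both comparisons share the retinal IP libraries. Retinal libraries lay above all ONP libraries for 1 member and below them for 9, where 11.8% and 16.5% of all genes did. The higher members were Tm7sf2 and Insig2, and the lower ones Hmgcs1, Mvd, Msmo1, Ebp, Sc5d, Abca1 and Abcg1. Within batch 2, again with a single nerve library, none was higher and 2 were lower (Hmgcs1 and Abcg1), and without the batch term 4 were higher and 15 lower. With the size factors used by DESeq2 the counts were 2 and 4, since Msmo1, Ebp and Sc5d were lost. Leaving out ONH library 7, ONP library 4 or retinal IP library 5 or 6 also left 4 lower, and leaving out ONH library 3 gave 4 higher. Without the bridging ONP library a single member, Abcg1, was called, and it was also the only call held in all 20 fits that left out a library.

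Hmgcs1 was lower in every retinal IP library than in any ONP library (-1.23, SE 0.314, adjusted p = 0.00514), as was Mvd (-0.87, SE 0.213, adjusted p = 0.0038). Abcg1 had 42.3, 162.3 and 248.2 CPM in ONP, all above retinal IP (-3.58, SE 0.595, adjusted p = 0.000126). Abca1, at 11.8 to 26.2 CPM in ONP, overlapped retinal IP (-1.56, SE 0.439, adjusted p = 0.01). Sc5d and Msmo1 had log2 fold changes of -0.78 (SE 0.288, adjusted p = 0.0419) and -0.71 (SE 0.246, adjusted p = 0.0324). Tm7sf2 was higher in all retinal IP libraries (1.19, SE 0.345, adjusted p = 0.0121). Insig2 had a log2 fold change of 0.83 (SE 0.218, adjusted p = 0.00665), although its ranges overlapped. The values for Apoe (-0.83, SE 0.489, adjusted p = 0.205), Srebf2 (0.38, SE 0.294, adjusted p = 0.343), Insig1 (0.71, SE 0.341, adjusted p = 0.116) and Sqle (-0.04, SE 0.299, adjusted p = 0.931) did not pass. Without the batch term Sqle was called lower (-0.56, adjusted p = 0.033).

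**Figure D4:**
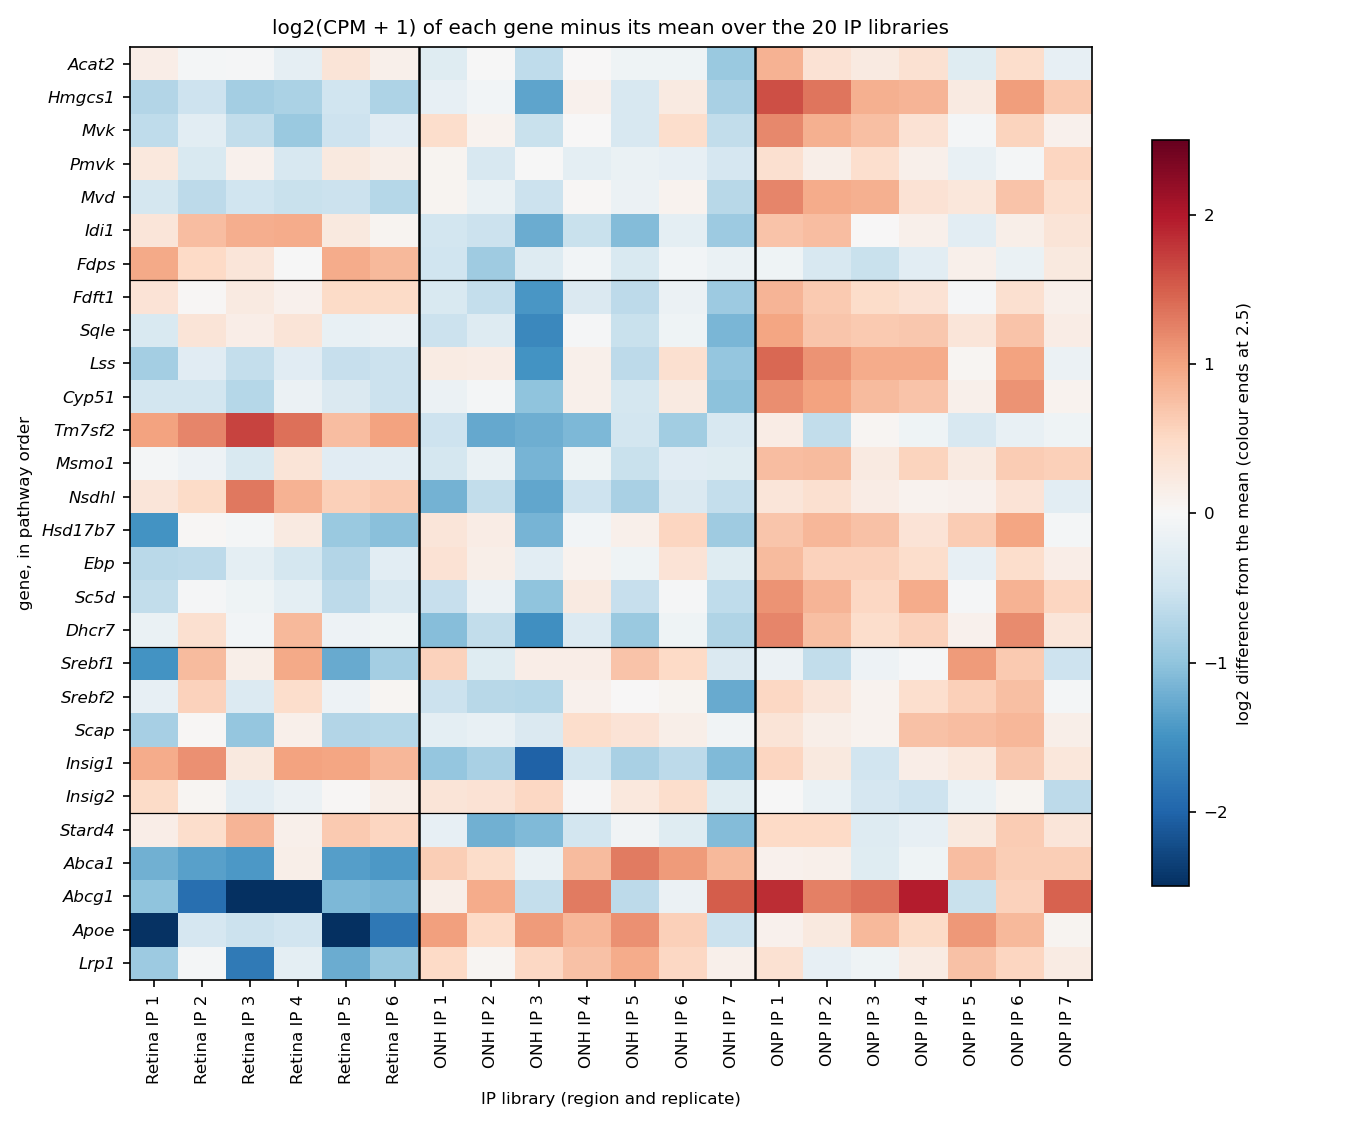
Log2(CPM + 1) of each gene minus its mean over the 20 IP libraries, with genes in pathway order down the side and libraries along the bottom; red is above the mean, blue below, and the colour ends at 2.5. The ONP block is mostly red from Hmgcs1 to Dhcr7 and ONH mostly blue, and Tm7sf2, Nsdhl and Insig1 are red in the retina.

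Retinal IP against retinal input asked what the IP enriched within the retina. No member was called, in either direction, and the share called over all 15181 genes was 0%. At an unadjusted p under 0.05, 14 members were higher and none lower, where 11.7% of all genes were higher and 10.4% lower. Estimates were positive for 24 of the 28, with a median log2 fold change of 0.55 beside 0.02 over all genes. DESeq2 called 6 members higher (Sqle, Dhcr7, Srebf1, Scap, Abca1 and Lrp1), where it called 969 of 15181 genes higher and 1103 lower. A fit of all 26 libraries called 8 members, adding Mvd and Srebf2, where it called 1419 of 17173 genes higher and 1452 lower. Without retinal IP library 1 edgeR called Srebf1 (adjusted p = 0.0322), and without retinal IP library 5 it called Srebf1 and Lrp1 (adjusted p = 0.0395 and 0.0493). In the same order, these fits called 341 of 15273 and 226 of 15556 genes higher, and 40 and 20 lower.

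Srebf1 had the largest estimate, with 18.6, 65.3 and 79.4 CPM in input and 85.0, 201.6 and 466.5 CPM in retinal IP (log2 fold change 2.25, SE 0.503, adjusted p = 0.057). The libraries did not overlap, and the same held for Mvd, Dhcr7 and Abca1, 4 members in all, where 1.65% of all genes were higher without overlap and 2.9% lower. Retinal IP libraries 2, 3 and 4 held 268.7 to 466.5 CPM of Srebf1 and the other 3 held 85.0 to 134.6 CPM. These were also the 3 with the most astrocyte markers, 9591 to 13880 CPM against 1681 to 3043 CPM, and the most Müller glia markers, 9613 to 10850 CPM against 3794 to 6543 CPM. The part of either cell type in the Srebf1 level was not tested.

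Apoe followed the same split, with 13370 to 14590 CPM in those 3 libraries and 3384 to 5638 CPM in the others. Input had a lowest, median and highest level of 1054, 2180 and 12280 CPM, the highest being input library 2, in which mitochondrial transcripts took 15.2% of counts. That library also had the highest input sums of Müller glia markers (5832 CPM, next 4553) and microglia markers (1219 CPM, next 269.8). Its astrocyte marker sum, 1451 CPM, lay within the range of the other input libraries. The part of any of these in its Apoe level was not tested. The log2 fold change of Apoe was 1.39 (SE 0.628, adjusted p = 0.21), and without input library 2 it was 2.24 (adjusted p = 0.0769), and without input libraries 1 and 2 it was 2.36 (adjusted p = 0.0934). Lrp1 had one of 1.48 (adjusted p = 0.0581), Abca1 1.70 (adjusted p = 0.0732), Dhcr7 1.43 (adjusted p = 0.095) and Sqle 1.01 (SE 0.313, adjusted p = 0.084). Input had 69.5, 122.2 and 192.3 CPM of Sqle, with 1 retinal IP library inside that range. The values for Srebf2 (0.89, SE 0.323, adjusted p = 0.124), Hmgcs1 (0.49, SE 0.327, adjusted p = 0.42), Insig1 (0.43, SE 0.371, adjusted p = 0.553) and Insig2 (-0.04, SE 0.209, adjusted p = 0.951) did not pass.

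Other genes of the pathway were followed as 5 lists of 65 genes. Of the fatty acid synthesis genes driven by SREBP1, 6 of 12 were lower in ONH than in ONP and none higher, beside 3.04% and 4.43% of all genes. Acss2, which makes acetyl-CoA from acetate, averaged 100.1 ± 31.2 CPM (SD, n = 7) in ONH and 217.7 ± 74.4 CPM (SD, n = 7) in ONP (-1.11, adjusted p = 0.00504), and Fasn, fatty acid synthase, had -0.84 (adjusted p = 0.0242). Of 25 other genes of uptake, storage and trafficking 3 were lower in ONH, among them Stard3 (-0.62, adjusted p = 0.0294) and Abca2 (-0.96, adjusted p = 0.0336). From 12 other sensing genes Erlin2 alone was lower, and from 10 genes of mevalonate side branches Fntb alone. None of the 5 tested oxysterol genes passed in ONH against ONP.

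Retinal IP was lower than ONH for 7 of the 25 uptake, storage and trafficking genes and higher for 2, beside 21.1% and 12.7% of all genes. It was lower than ONP for 9 and higher for 2, beside 19.9% and 12.9%. Apod, an apolipoprotein, averaged 2.85 ± 2.05 CPM (SD, n = 6) in retinal IP, 1765 ± 417 CPM (SD, n = 7) in ONH and 2644 ± 1087 CPM (SD, n = 7) in ONP (log2 fold changes -9.60 and -10.16). The phospholipid transfer protein gene Pltp averaged 2.96, 224.9 and 233.9 CPM in the same order. Osbpl2 and Osbpl9, which encode oxysterol-binding relatives, were higher in retinal IP than in either nerve region. Of the oxysterol genes, Cyp27a1, a cholesterol hydroxylase, averaged 6.07 CPM in retinal IP and 51.5 and 72.5 CPM in ONH and ONP (-2.96 and -3.47, adjusted p = 0.00162 and 0.00027). Nr1h3, which encodes LXR alpha, had 5.21, 31.4 and 26.7 CPM (-1.88 and -1.69, adjusted p = 0.00417 and 0.00705). Ggps1, which draws farnesyl diphosphate towards protein prenylation, was higher in retinal IP than in ONH and ONP (0.92 and 1.05). Against input, none of the 5 lists held a called gene. At an unadjusted p under 0.05, where 11.7% of all genes were higher and 10.4% lower, the fatty acid list had 7 of 12 higher and 0 lower, uptake, storage and trafficking 9 of 25 higher and 1 lower, and sensing 4 of 12 higher and 0 lower. The mevalonate side branches had 0 of 10 higher and 2 lower, and the oxysterol list 1 of 4 tested higher and 1 lower.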

How the data were processed

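The authors quantified reads with Salmon 1.6.0 against mm10, per the submitters' processing notes, and deposited whole-number estimated counts per gene for 54532 genes in 26 libraries. Per the labels' protocols, libraries were made from poly(A) RNA with a kit for ultra-low input, so PCR copies are not independent molecules. The gene annotation used for counting is not given in the sources used here. Symbols, mm10 coordinates and exon lengths came from GENCODE M21.

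The test was the quasi-likelihood F test of edgeR 4.0.16 in R 4.3.3 on TMM-normalised counts, after filterByExpr (count of at least 10, total of at least 15), with Benjamini-Hochberg adjustment over all genes tested and calls under 0.05. SE is the log2 fold change divided by the square root of F. Retinal IP against input used 12 libraries. Regions were compared over 20 IP libraries with a batch term. Levels in CPM use TMM-scaled totals over 26 libraries.

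Members and lists were chosen with earlier results of these data known. All 28 members are named. Those called have full statistics, up to 8 a comparison by size, as do Apoe, Srebf2, Insig1, Insig2, Hmgcs1 and Sqle. Other lists give up to 2 examples a direction. Similar transcripts were found with BLAST 2.17.0. Alternatives were RLE size factors, no filter, DESeq2 1.42.0, single batches, a fit without batch, a replicate block, all 26 libraries together and each library left out. The tests were also run on simulated counts. These held no batch effect, so that run cannot speak to the batch term.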

Additional observations from a re-analysis of the deposited data

Results flagged for a closer look

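Of 112 sets of values, 1 for each member and group, 6 held a library set apart from the rest of its group by more than Dixon's 95% limit, and chance gives about 1 in 20. Retinal input library 2 was involved in 4 of them. It was lowest for Acat2 (56.6 CPM, next 115.0) and Fdps (3.67 CPM, next 7.19) and highest for Ebp (120.7 CPM, next 36.6) and Apoe (12280 CPM, next 3180). Lrp1 was highest in retinal input library 6 (58.1 CPM, next 33.9). Abca1 was highest in retinal IP library 4 (16.6 CPM, next 5.91), which was also the retinal library with the most astrocyte markers (13880 CPM).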

How the results depend on the processing

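In ONH against ONP, 17 members lower became 14 to 18 when 1 library was left out, and the 1 higher 0 to 1. The higher count was 0 without the filter and 2 with a replicate block. That block gave 22 lower, with Pmvk, Hsd17b7, Ebp, Scap and Abcg1 added, and Abca1 added as higher. Over the 14799 genes it tested, 1637 were called lower and 1481 higher. Same-numbered libraries correlated by 0.07 to 0.46 here and by -0.10 to 0.23 in the retinal groups. Of the ONH libraries 7 of 7 matched their own number best in ONP, and of the retinal IP libraries 5 of 6 did in input. The labels do not say what the numbers mark, so the main tests took libraries as unpaired. No replicate block could be fitted with batch for retina against nerve, and in retinal IP against input it gave 0. There, members higher were 1 without the filter, 6 with DESeq2, 8 with 26 libraries and 0 to 2 leaving out a library. Genes called higher were 152 of 27961 without the filter, 969 of 15181 with DESeq2 and 1419 of 17173 with 26 libraries. In retinal IP against ONH, batch 2 alone gave 1 higher and 1 lower, no batch term gave 5 lower, and leaving out a library gave 4 to 10 and 1 to 3. Against ONP, no batch term gave 4 higher and 15 lower, batch 2 alone 0 and 2, leaving out a library 0 to 4 and 1 to 8, and RLE size factors or no filter 4 lower. Some estimates turned sign, and none passed the test where its sign had turned. Without a batch term, Lss became -0.30 and Cyp51 -0.14 against ONH, both 0.58 in the main fit. Likewise Hmgcs1 became -0.38 and Insig2 -0.14 against ONH, and Srebf2 -0.26 against ONP. For Hmgcs1 against ONH, leaving out a library gave -0.0445 to 0.133. Sqle against ONP became 0.0096 with RLE or DESeq2, 0.0153 without the filter, 0.0634 in batch 2 and -0.111 to 0.0658 leaving out a library. Insig2 against input became 0.009 without the filter and -0.162 to 0.0857 leaving out a library. The cause was not tested.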
